A study of Mus musculus with 29 samples.

Results

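Many mammalian genes end their transcripts at more than 1 cleavage and polyadenylation site. Sites within 1 last exon change the length of the 3′ UTR alone, while a site in an intron or in an alternative last exon also replaces the end of the coding sequence, so that the protein can lose or exchange its C-terminal part. In muscle cells such changes are known for several proteins of the contractile apparatus, and the cleavage machinery itself includes genes that make truncated forms in this way. The pairs described here are the genes whose 2 most used poly(A) sites lay more than 10 kb apart along the genome, a distance at which alternative last exons and intronic sites are the usual arrangement. The gene regions of the sites were not annotated here, so no pair was assigned to one or the other arrangement.

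RNA 3′ ends next to the poly(A) tail were sequenced and counted by 3′READS+ in C2C12, an established line of mouse myoblasts that can form muscle fibres in culture. The cells were labelled proliferating (P), with 10% fetal bovine serum, or differentiating (D), and were separated into cytosol and membrane, the fraction that holds the endoplasmic reticulum. Both fractions of both states were run on gradients and taken as polysome or monosome RNA, which gave 8 groups with 2 replicates each and 16 libraries. The D polysome libraries were labelled with 2% horse serum and the D monosome libraries with the proliferation medium. A further 8 libraries came from P cells that had no puromycin or 100 µg/ml of it, with exposures of 0, 30 and 60 min; each exposure has a single library per fraction. A single cytosol and a single membrane library of P cells were made without a gradient. Puromycin releases nascent chains from ribosomes. Nothing in the labels ties replicates to separate cultures. The p-values therefore reflect the spread between the libraries at hand, which may be technical. The line is a single cell line in culture and not muscle tissue.

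The pairs were chosen on reads summed over all 26 libraries. For each gene, the 2 sites with most reads on its main chromosome and strand were taken, the upstream one as proximal and the downstream one as distal, and a pair was kept with at least 260 reads, at least 5% of them in the rarer site and more than 10000 nt between the sites. Of 5250 genes with a pair of any distance that met the other 2 criteria, 583 (11.1%) met all 3. Total reads, the share in the rarer site and the distance are therefore descriptions of the choice and not results, and a pair with many reads in 1 group only could pass through that group. In Zfand3, Bend6 and Col12a1, 1 of the sites held under 5% of the reads in most P cytosol gradient libraries. Their choice thus leaned on membrane reads. In Camta1 and Ckap5, 1 of the sites did so in each cytosol library with a puromycin label. In Sdccag8 and Pdlim5, the median share of 1 site over P gradient libraries was under 5%, so their choice may have leaned on D reads. Other pairs may have leaned on 1 group in the same way. A lack of overlap between groups or a p-value in such pairs is a description, in each comparison below. Just inside the distance limit were Brwd1 at 10013 nt, Fam116b at 10039 nt and Phf17 at 10087 nt, and just outside it Hook3 at 9871 nt, Ppp1r3f at 9870 nt and Klhl20 at 9868 nt. At the read limit, Wdr27 and Patz1 with 261 reads and Man2b1 with 263 were kept, while BC031353 and Cwf19l2 with 258 and Zfp647 with 256 were not. At the limit on the rarer site, the kept pairs nearest to it were 2410076I21Rik at 5%, Arl3 at 5.01% and Atrnl1 at 5.02%, and the nearest left out were Tgfbr3 at 4.99%, Lhx6 at 4.97% and Galntl4 at 4.94%.

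The 583 pairs lay on 20 chromosomes with a median of 29618 nt between the sites and a range from 10013 to 904201 nt. In 397 pairs the distance was over 20000 nt, in 195 over 50000 nt and in 91 over 100000 nt. By name, 571 of the genes were protein coding in RefSeq, 5 were long noncoding RNAs and 3 transcribed pseudogenes, and 4 names were not matched. No pair had a site of another gene with at least 26 reads between its sites on the same strand, and 34 pairs had one on the opposite strand. Another site of the same gene with at least 26 reads lay between the pair in 347 cases, and the pair held a median of 87.5% of the gene's reads. The distal site was the main one in 439 pairs (75.3%), against 63.2% of 963 pairs 2000 to 10000 nt apart, 57.4% of 2503 pairs from 200 to under 2000 nt apart and 52.0% of 1201 pairs under 200 nt apart.

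The 10 pairs with most reads showed how different the balance was between genes. Fbln1, which encodes the matrix glycoprotein fibulin-1 with alternative C-terminal forms, held 103092 reads, and its distal site took 88.7% to 96.6% of the pair in each gradient library. Sik3, a salt-inducible kinase, was used mainly at the proximal site, with a distal share of 2.42% to 18.3% in gradient libraries. Eif4e2, a cap-binding protein that represses translation, was also mainly proximal, at 18.7% to 52.5% distal. Kif1c, a kinesin motor, was mainly distal, at 68.7% to 96.4%. The other 6 were Zfand3, Nisch, Gart, Agap3, Cyhr1 and Acbd6. The 5 pairs farthest apart were Wwox with 904201 nt, Atrnl1 with 450458 nt, Pcdh7 with 403770 nt, Dock1 with 390461 nt and Fam5c with 384822 nt, and none of these 5 passed the test in any comparison of gradient libraries without replicate numbers as a block. With them Fam5c passed between P fractions and in membrane polysomes (adjusted p = 0.0366 and 0.0353).

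Depth ranged from 2987706 to 11721948 reads per library, and the 583 pairs held 0.685% to 1.33% of them. Markers of differentiation separated the states, with Myog, the muscle transcription factor myogenin, at 0.186 to 3.47 CPM, the reads of a gene or site scaled to the size of its library, in P and 69.3 to 502 CPM in D gradient libraries, D monosome libraries included. Markers of proliferating myoblasts overlapped between the states. Myf5, Ccnd1, Mki67 and Id1 had lower medians in D, while Myod1 had a higher one (8.08 CPM in P and 19.8 CPM in D). Markers of endothelial, blood, epithelial and fat cells (Pecam1, Cdh5, Ptprc, Krt18, Adipoq and Fabp4) did not exceed 1.19 CPM in any gradient library. The sum of 5 RNAs known to stay in the nucleus (Kcnq1ot1, Malat1, Meg3, Neat1 and Xist) was 17.0 to 38.5 CPM in P cytosol and 78.4 to 714 CPM in P membrane gradient libraries. It was 5.98 to 16.4 CPM in D cytosol and 15.0 to 174 CPM in D membrane, which overlapped. In the puromycin series it was 15.6 to 33.4 CPM in cytosol and 166 to 602 CPM in membrane. By medians the sum was mostly Neat1 and Xist. Malat1 overlapped between fractions in each of these sets, and Kcnq1ot1 did not exceed 1.32 CPM. Meg3 was at 0 in all gradient libraries. The part of nuclear RNA in the differences between fractions was not tested.

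In both states the far pairs took a larger share of membrane than of cytosol reads. In P gradient libraries the share was 0.770% to 0.906% in cytosol and 1.10% to 1.20% in membrane, and in D libraries 0.719% to 0.873% and 0.928% to 1.14%. The groups did not overlap in either state. The share is weighted by pairs with many reads. In P cells both ends of Fbln1, the pair with most reads, were higher in membrane (log2 3.08 and 3.04, with 0.1 CPM added). The median over pairs of log2(distal/proximal), with 1 read added to each count, was 1.00 to 1.07 in P cytosol and 1.24 to 1.92 in P membrane libraries, and 1.00 to 1.26 in D cytosol and 1.49 to 2.17 in D membrane libraries. Within membrane the polysome libraries were above the monosome libraries in each state. The medians over all pairs were 0.32 to 0.42 in P cytosol and 0.58 to 0.72 in P membrane libraries. In D they were 0.32 to 0.69 in cytosol and 0.64 to 0.97 in membrane, which overlapped. Over all pairs, membrane polysome libraries were above monosome libraries in D and overlapped with them in P. Taken site by site in P cells, with 0.1 CPM added to each group's mean level, distal sites of far pairs had a median log2 membrane over cytosol of 0.56 and were above 0 in 422 of 583 (72.4%), while proximal sites had a median of -0.01 and were above 0 in 286 (49.1%). Over all 5250 pairs those medians were 0.45 for distal and 0.17 for proximal sites, and 66.3% and 56.1% of the sites were above 0.

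**Figure D1:**
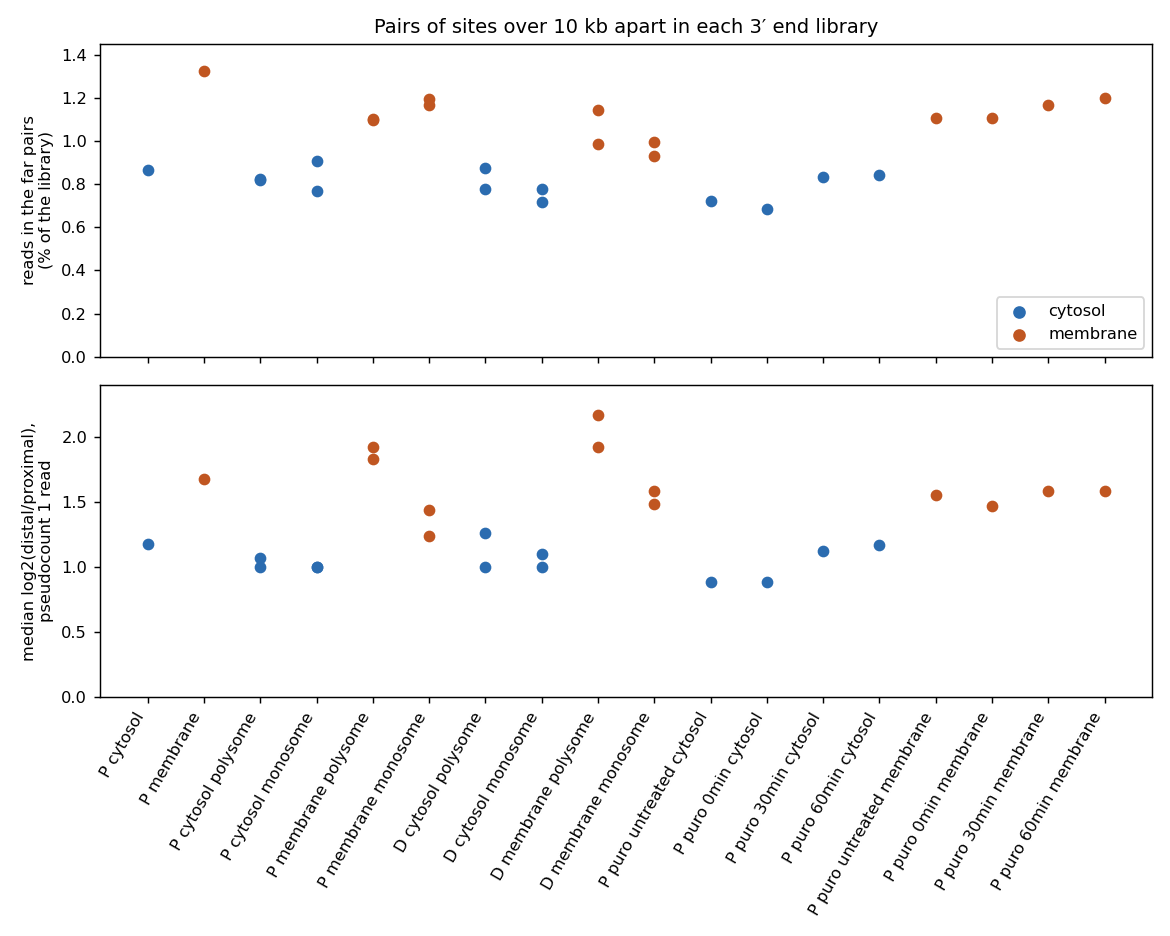
Share of each library's reads in the 583 pairs (top, percent) and median log2(distal/proximal) over the pairs (bottom, 1 read added to each count), 1 point per 3′ end library, cytosol in blue and membrane in orange. Every membrane library holds a larger share in these pairs than every cytosol library, from 0.928% up against 0.906% at most.

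Membrane was then compared with cytosol for each pair. The measure is the difference in log2(distal/proximal) between groups, so that a positive value means relatively more of the distal end, and a pair is called where its adjusted p, over all pairs of any distance, is at most 0.05 in edgeR's quasi-likelihood test. In P gradient libraries 24 of the 583 far pairs were called (4.12%), against a background of 1.05% of all 5250 pairs; 19 lay toward the distal site in membrane, where the background is 0.876%, and 5 toward the proximal site, where it is 0.171%. The median difference was 0.66 over far pairs and 0.17 over all pairs, and 67.6% of far pairs and 59.0% of all pairs were above 0. In the pairs 2000 to 10000 nt apart the values were near those of the far pairs, with a median of 0.51 and 69.6% above 0, and 2.39% were called. This fit did not use the replicate numbers, though libraries with the same number deviated together. With replicate numbers as a block 87 far pairs were called, 78 of them toward distal, against 6.13% of all pairs and 5.12% toward distal. DESeq2 called 37 (background 1.98%). Without the P cytosol polysome replicate 1 the count was 13.

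The largest difference belonged to Zfand3, a gene for an AN1-type zinc finger protein whose sites lie 185065 nt apart on chromosome 17 (plus strand, positions 30161900 and 30346965 in mm9). In P cytosol its proximal site had 12 and 16 reads in polysome and 4 and 16 in monosome libraries, with 311, 932, 225 and 979 reads at the distal site. In P membrane the proximal site had 467, 1861, 1410 and 5269 reads and the distal site 223, 499, 156 and 499. The distal share was thus 96.3% to 98.4% in cytosol and 8.65% to 32.3% in membrane, with no overlap. The level of the proximal end was 2.30 ± 1.04 CPM in cytosol and 410 ± 397 CPM in membrane (SD, n = 4), and that of the distal end 120 ± 78.2 CPM and 59.1 ± 34.5 CPM. The log2 difference was -7.98 (SE 0.43, adjusted p = 8.09e-11). As the choice of Zfand3 leaned on membrane reads, its p-values and kept calls between fractions, here and below, describe the pair. In the single libraries without a gradient the proximal site had 22 reads in cytosol and 11969 in membrane, more than in any other library.

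The other 4 pairs called toward the proximal site in P membrane were Stag1, Med14, Cyhr1 and Bend6. Stag1 encodes a subunit of cohesin and has its sites at 100593360 and 100857825 on chromosome 9 (plus strand). Its distal share in cytosol was 85.0% and 81.4% in polysome and 45.7% and 48.9% in monosome libraries, and in membrane 11.3%, 4.80%, 20.3% and 9.13%. The groups did not overlap, and the log2 difference was -4.19 (SE 0.61, adjusted p = 0.000935). Med14, a subunit of the Mediator complex on chromosome X (minus strand, 12263555 and 12252497), had distal shares of 86.1%, 96.0%, 44.4% and 46.8% in cytosol and 39.5%, 20.3%, 26.7% and 12.1% in membrane, a difference of -3.33 (SE 0.52, adjusted p = 0.00116). Cyhr1, a cysteine- and histidine-rich protein gene, went from 74.6% to 93.3% in cytosol to 43.0% to 63.1% in membrane (-2.44, SE 0.30, adjusted p = 0.00014). In Stag1 and Med14 the distal levels of both fractions overlapped, and the proximal levels did not: Stag1 proximal ends were at 1.03 to 11.4 CPM in cytosol and 36.9 to 105 CPM in membrane. Bend6, a BEN domain gene, had distal shares of 96.4% to 100% in cytosol and 62.2% to 91.7% in membrane (-4.24, SE 0.98, adjusted p = 0.0371), and lost its call in 7 of the 8 fits that left out 1 P library.

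Mgat1, the Golgi enzyme that starts complex N-glycans, was among the pairs with relatively more distal ends in membrane and has its sites on chromosome 11 (plus strand, 49060672 and 49076529). Its distal share in P cytosol was 77.8%, 75.9%, 73.3% and 58.5%, and in P membrane 99.2%, 98.6%, 93.1% and 96.0%. The distal end was at 8.95 ± 2.35 CPM in cytosol and 57.1 ± 16.3 CPM in membrane (SD, n = 4), the proximal end at 3.95 ± 2.54 and 1.81 ± 1.69 CPM, and the log2 difference was 3.98 (SE 0.60, adjusted p = 0.0011). Vps53, a subunit of a complex that tethers vesicles at the Golgi, had 6.29% to 44.5% distal reads in cytosol and 43.5% to 73.7% in membrane, which overlapped through 1 polysome cytosol library and 1 monosome membrane library (2.68, SE 0.47, adjusted p = 0.00399).

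Adarb1, an adenosine deaminase that edits RNA, has its sites 34816 nt apart on chromosome 10 (minus strand, 76788288 and 76753472). Its distal share was 12.5% and 35.8% in polysome and 6.84% and 7.81% in monosome libraries of P cytosol, and 68.7%, 74.5%, 33.6% and 25.4% in P membrane. The difference was 2.76 (SE 0.41, adjusted p = 0.000935). Txnrd2, a mitochondrial thioredoxin reductase, went from 32.4% to 64.9% distal in cytosol to 86.2% to 90.3% in membrane (2.88, SE 0.51, adjusted p = 0.00399). Zfand3, Stag1, Med14, Cyhr1, Mgat1, Vps53, Adarb1 and Txnrd2 kept their calls whichever 1 of the 8 P libraries was left out. Of these, Stag1 and Txnrd2 were not called between the fractions of the puromycin series described below.

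Col12a1, the chain of a fibril-associated collagen, has a proximal and a distal site 115914 nt apart, and its distal end was rare in P cytosol, with 0.877% and 1.41% in polysome and 1.85% and 13.3% in monosome libraries. In P membrane it took 19%, 51.3%, 23% and 31.6%, without overlap (3.89, SE 0.77, adjusted p = 0.00952). That call was lost without P cytosol monosome replicate 1 and without P cytosol polysome replicate 1. Trmt2b, a tRNA methyltransferase gene, lost its call (2.88, SE 0.56) without the same libraries. Ahnak, a very large scaffold protein, had 33.3% to 71.7% distal reads in cytosol and 75.8% to 91.8% in membrane (2.87, SE 0.58, adjusted p = 0.0105) and lost its call without either of those libraries or P membrane monosome replicate 2. Gpr116, an adhesion receptor, at 2.76 (SE 0.60, adjusted p = 0.0187), lost its call without P cytosol monosome replicate 1 or 2, P cytosol polysome replicate 2, P membrane monosome replicate 2 or P membrane polysome replicate 2.

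In D gradient libraries 7 far pairs were called (1.20%; background 0.171% of all pairs), 4 toward the distal site (background 0.114%) and 3 toward the proximal site (background 0.0571%), and 30 with the replicate block (background 1.68%). All 7 had also been called in P cells and lay in the same direction. Zfand3 had a distal share of 97.4% to 98.7% in D cytosol and 34.1% to 82.9% in D membrane, a log2 difference of -5.25 (SE 0.41, adjusted p = 1.14e-07), and it alone of the 7 kept its call whichever D library was left out. The others were Trmt2b at 4.65, Mgat1 at 3.86, Col12a1 at 3.33 and Txnrd2 at 2.60 toward the distal site, and Med14 at -2.66 and Cyhr1 at -1.77 toward the proximal site. The count fell to between 1 and 2 when any 1 of the 8 D libraries was left out. The difference between D and P cells in the membrane effect was tested directly: 0 of the 583 pairs were called by edgeR (background 0%), and 0 by DESeq2. At an unadjusted p under 0.05 edgeR had 25 of the far pairs, beside 168 of all 5250. With the replicate block, 1 pair was called (background 0.0381%), Zfand3, whose membrane difference was 2.74 less negative in D than in P cells (adjusted p = 0.000543).

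The puromycin series gave a separate set of membrane and cytosol libraries of P cells. Over its 4 exposures, 136 of 580 far pairs with reads were called (23.4%; background 13.8% of 5241 pairs), 106 toward the distal site (background 11.1%) and 30 toward the proximal site (background 2.63%). DESeq2 called 81 (background 7.38%). With 1 library per exposure and fraction, the spread in this fit is that around the exposure pairs and a straight line. Its SEs and p-values, however small, do not measure a spread between replicates. Of the 24 pairs called in P gradient libraries, all 24 had the same sign here and 19 (79.2%) were called in the same direction, which is 14.0% of the 136. Those not called here by edgeR were Stag1 (-0.77, adjusted p = 0.106), Txnrd2 (0.74, adjusted p = 0.211), Chst3, Musk and Znrf3. In the single membrane and cytosol libraries without a gradient 23 of the 24 had the same sign; the exception was Trmt2b at -0.03. Across the 580 pairs the differences of both sets had a Pearson correlation of 0.504 and a Spearman correlation of 0.485, and 433 (74.7%) had the same sign. Over the 224 pairs with a mean of at least 50 reads per gradient library the correlations were 0.681 and 0.622. Genes are not independent replicates, and within a set all genes share the same libraries, so these values are descriptions.

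**Figure D2:**
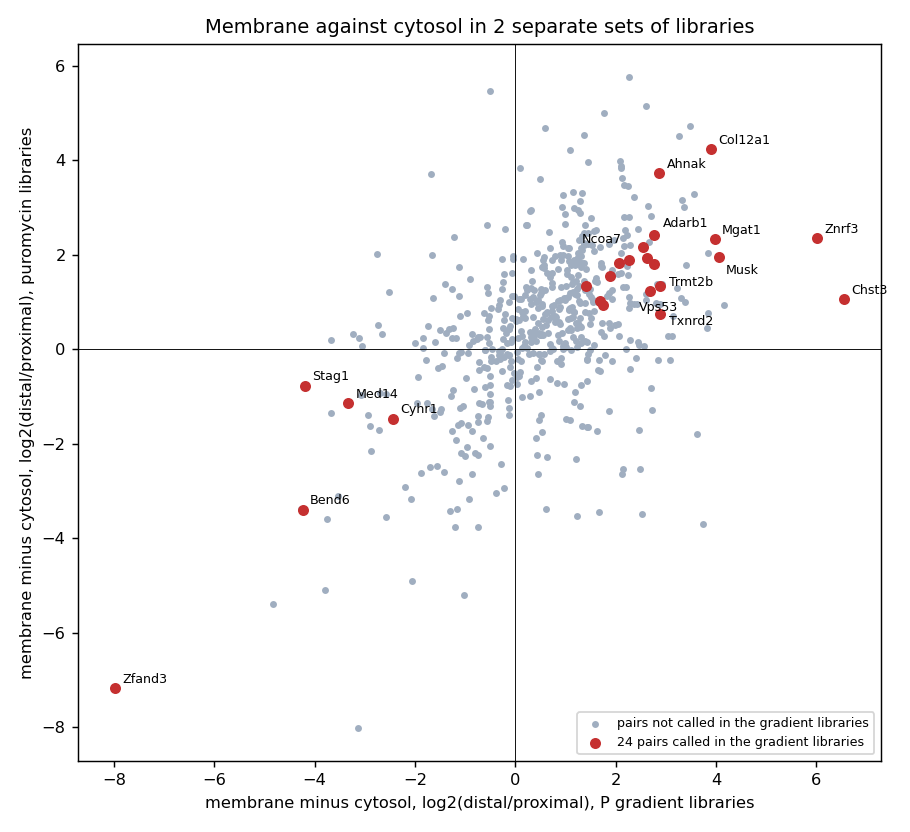
Membrane minus cytosol difference in log2(distal/proximal) for 580 pairs, in P gradient libraries (x axis) and in the puromycin series (y axis), with the 24 pairs called in gradient libraries in red and most of them named. All 24 lie in the quadrants where both sets have the same sign, with Zfand3 at -7.98 and -7.18 and Col12a1 at 3.89 and 4.23.

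The largest named differences toward the distal site in the puromycin series were those of Camta1, a calmodulin-binding transcription activator, at 5.77 (SE 0.61), Col12a1 at 4.23 (SE 0.37), Atm, the DNA damage kinase, at 4.21 (SE 0.62), Pde3b, a phosphodiesterase, at 3.99 (SE 0.55) and Ahnak at 3.72 (SE 0.36). Camta1 was mainly proximal in all cytosol libraries, with 0% to 3.85% of reads at the distal site, and near balance in membrane at 40.6% to 58.8%. Its difference in P gradient libraries was 2.27 and missed the threshold (adjusted p = 0.14). Pde3b had 0% to 25.0% distal reads in cytosol and 50.0% to 81.2% in membrane. Ppip5k1 at 3.46 and Gpatch8 at 3.03 were also among them, and Gpatch8 lost its call without the 60 min libraries.

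Toward the proximal site the largest were Zfand3 at -7.18 (SE 0.22, adjusted p = 1.04e-185), Ckap5, a microtubule polymerase, at -5.10 (SE 1.38), Bend6 at -3.40, Chd9, a chromatin remodeller, at -2.79 (SE 0.74), Arl3, a small GTPase of cilia, at -2.65 (SE 0.53), Kif13a, a kinesin, at -2.49 (SE 0.82), Phex, an endopeptidase on the cell surface, at -2.26 and Pigl, an enzyme of GPI anchor synthesis in the ER, at -2.06 (SE 0.38). Ckap5 had 0 proximal reads in each of the 4 cytosol libraries and 18, 1, 6 and 3 in membrane, so its difference is a description too. Its call was lost without the untreated or the 30 min libraries. Kif13a lost its call without the untreated or the 0 min libraries, and Chd9 without the 30 min libraries. With all sites of a gene summed to the nearer of the pair, Kif13a was at -0.05 and Chd9 at 0.24, and neither was called.

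**Figure D3:**
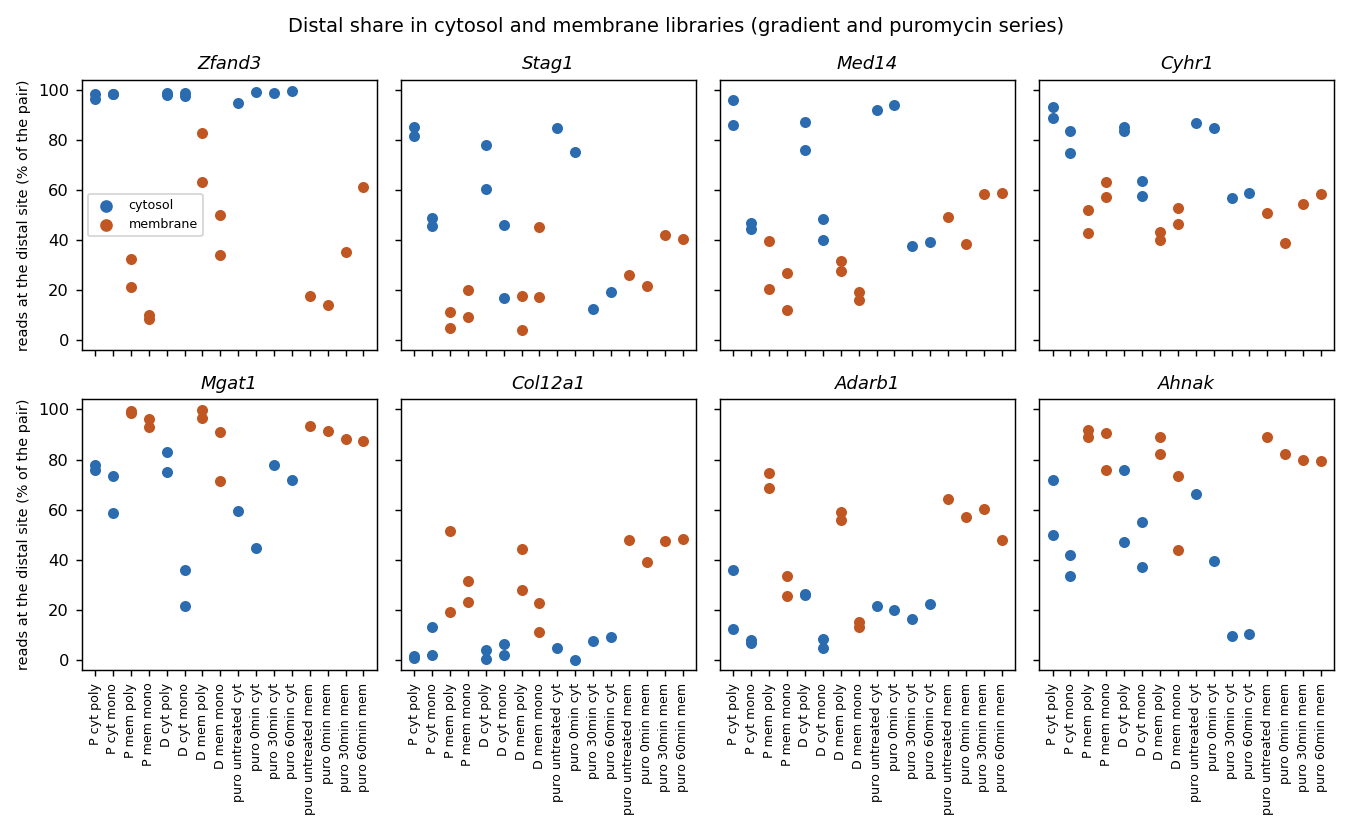
Reads at the distal site as a percent of the pair, 1 point per library, for 8 pairs in gradient (P and D, polysome and monosome) and puromycin libraries (1 per exposure and fraction); cytosol in blue, membrane in orange. Zfand3 is at least 94.8% distal in all cytosol libraries, while Stag1, Med14 and Cyhr1 have lower distal shares in cytosol after 30 and 60 min of puromycin than in untreated and 0 min cells.

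Whether the fraction difference changed with puromycin was tested as a slope per 30 min of exposure, with untreated cells counted as 0 min. A straight line was not tested against a step between exposures. A total of 14 of 580 far pairs were called (2.41%; background 0.611%), 7 in each direction, with a background of 0.401% toward distal and 0.210% toward proximal. DESeq2 called 4 (background 0.191%). The count was 7 without the untreated or the 0 min libraries and 9 without the 60 min libraries, and 10 of the 14 lost their call in at least 1 fit that left out an exposure. With 1 library per exposure and fraction, the spread is that around the line and not between replicates of an exposure.

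Stag1 had the largest slope of those named. Its proximal end in cytosol was at 2.17 CPM in untreated cells and 1.37 CPM at 0 min, and at 28.9 CPM after 30 min and 21.6 CPM after 60 min. In membrane it was at 32.2, 30.7, 12.4 and 13.7 CPM in the same order. Its distal end was at 11.9, 4.12, 4.15 and 5.23 CPM in cytosol, so the cytosol distal share went from 84.6% and 75% to 12.6% and 19.5%. The slope was 2.79 (SE 0.38, adjusted p = 8.05e-09). Med14 had the same order of values: its proximal end in cytosol was at 0.904 and 0.412 CPM before and 13.4 and 11.2 CPM after 30 and 60 min, and in membrane at 19.6, 14.8, 8.34 and 9.22 CPM, with a slope of 2.56 (SE 0.41, adjusted p = 9.45e-07). The Med14 cytosol levels before 30 min were under 1 CPM and rest on few reads. Cyhr1 had proximal ends at 13.7, 17.2, 49.1 and 43.2 CPM in cytosol and a slope of 1.53 (SE 0.20, adjusted p = 6.63e-11). These 3 and Wdr33 kept their calls whichever exposure was left out, but the slopes were steeper without the 60 min libraries, at 6.06 for Stag1, 5.23 for Med14, 2.75 for Cyhr1 and -2.21 for Wdr33. The slope of Stag1 missed the threshold among pairs with at least 10% of reads in the rarer site (adjusted p = 0.246).

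Zfand3 did not show these values. Its proximal end in cytosol was at 4.16, 0.961, 0.692 and 0.413 CPM in untreated, 0, 30 and 60 min libraries, and in membrane at 206, 171, 94.6 and 41.4 CPM. From 0 min on, the cytosol levels were under 1 CPM and rest on few reads, so their order is not firm. The slope of the fraction difference was 0.49 (SE 0.44, adjusted p = 0.928). Fbln1, a secreted protein, was higher in cytosol after 30 and 60 min at both ends, with 56.4, 63.7, 1355 and 1201 CPM at the distal and 2.17, 2.33, 76.3 and 73.8 CPM at the proximal site. Its distal share in cytosol stayed between 94.2% and 96.5%. The part of membrane RNA in the cytosol libraries of exposed cells was not tested.

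The other pairs with a positive slope were Abcc10 at 2.62 (SE 0.72), a transporter, Pex6, an ATPase of peroxisome import, at 2.23 (SE 0.50), Pacsin2, a membrane-bending protein, at 1.78 (SE 0.37), and Bmp1 at 1.02 (SE 0.21). Abcc10 proximal ends were at 0.904 and 0.275 CPM in cytosol before and 9.29 and 12.7 CPM after 30 and 60 min, but its call was lost whichever exposure was left out. The levels before 30 min rest on few reads here as well. Pex6 lost its call without the untreated, 0 min or 60 min libraries, Pacsin2 without the 0 or 60 min and Bmp1 without the untreated libraries. Toward the proximal site the slopes were -2.04 for Txnrd2, -1.97 for Gpr116, -1.59 for Tor1aip2, which binds torsin ATPases in the ER membrane, -1.47 for Ece2, a metalloprotease, -1.25 for Wdr33, -0.96 for Sin3b and -0.82 for Gart, an enzyme of purine synthesis. Wdr33, a subunit of the cleavage and polyadenylation specificity factor, had a distal share in cytosol of 49.7% and 37.6% before and 74.7% and 74.2% after 30 and 60 min, and of 91.0% to 94.4% in membrane. Txnrd2 lost its call without the untreated libraries, Gpr116 and Ece2 without the untreated or 0 min libraries, Tor1aip2 and Gart without the 0 or 60 min libraries, and Sin3b without the untreated, 0 min or 60 min libraries.

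Between states, 37 of the 583 pairs were called over fractions and gradient parts (6.35%; background 2.34% of all pairs), 24 toward the distal site in D cells (background 1.62%) and 13 toward the proximal site (background 0.724%). The median difference was 0.36 over far pairs, 0.29 over pairs 2000 to 10000 nt apart and 0.16 over all pairs. With the replicate block 109 were called (background 9.83%), and by DESeq2 69 (background 3.89%). With the 8 polysome libraries alone, an alternative chosen after seeing the data because of the medium named for the D monosome libraries, 6 were called (background 0.267%), 2 toward the distal and 4 toward the proximal site. All 16 pairs named by the rule kept their sign there, but 10 of them lost their call, and the 6 that kept it were Obsl1, Sdccag8, Cobl, Pdlim5, Oxsr1 and Papola. In these bulk libraries, fewer cells of a type and less RNA per cell cannot be told apart.

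Obsl1, which encodes an obscurin-like adaptor of the cytoskeleton, had the largest named difference toward the distal site. Its sites lie 10512 nt apart on chromosome 1 (minus strand, 75492912 and 75482400). In P libraries the distal share had a lowest value of 6.92%, a median of 11.3% and a highest value of 28.6%, and in D libraries 50.7%, 78.1% and 91.9%, with no overlap. The distal end was at 3.99 ± 2.25 CPM in P and 51.8 ± 44.2 CPM in D (SD, n = 8), and the proximal end at 28 ± 15.8 and 13.6 ± 7.89 CPM. The log2 difference was 4.46 (SE 0.38, adjusted p = 2.51e-07). Sdccag8, a centrosomal protein gene with sites 181357 nt apart, was mainly proximal in both states, at 2.34% to 7.50% distal in P (median 3.83%) and 15.7% to 37.4% in D (median 27.8%), without overlap (3.14, SE 0.27, adjusted p = 2.51e-07). Since the choice of this pair may have leaned on D reads, these values are a description.

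Whrn, which encodes the scaffold protein whirlin, went from 52.9% to 80.5% distal in P (median 70.0%) to 88.9% to 97.2% in D libraries (median 93.1%; 2.85, SE 0.36, adjusted p = 6.82e-05). Rab11fip3, an effector of Rab11 in endosome recycling, went from 70.9% to 87.9% to between 88.9% and 100% (2.96, SE 0.48, adjusted p = 0.00126). Neither pair overlapped between states, and both missed the threshold in polysome libraries alone (adjusted p = 0.0604 for Whrn and 0.104 for Rab11fip3). Gnb1l at 3.62, the matrix protein gene Matn2 at 2.03, the histone demethylase gene Kdm6b at 2.70 and the sortilin-family receptor gene Sorcs2 at 1.93 also passed the test. In polysome libraries alone Gnb1l was at 1.37 and Kdm6b at 0.70, and all 4 missed the threshold. Kdm6b lost its call in 13 and Sorcs2 in 11 of 16 fits that left out 1 library, and Matn2 without D cytosol polysome replicate 2.

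Toward the proximal site, Cobl, an actin nucleator, had the largest difference. Its sites lie 59687 nt apart on chromosome 11 (minus strand, 12196366 and 12136679). The distal share was 51.9% to 90.6% in P (median 74.0%) and 2.79% to 29.5% in D libraries (median 8.45%). The proximal end was at 1.38 ± 0.507 CPM in P and 40.4 ± 24.8 CPM in D (SD, n = 8), while the distal end was at 4.17 ± 1.62 and 3.23 ± 1.57 CPM. The log2 difference was -5.04 (SE 0.61, adjusted p = 0.000117). Pdlim5, a PDZ and LIM domain protein of the muscle Z-disc that is known to have short forms without LIM domains, went from 91.5% to 98.7% distal in P (median 95.7%) to 43.1% to 91.6% in D (median 71.2%; -3.19, SE 0.49, adjusted p = 0.00141). The states overlapped through the highest D library, cytosol monosome replicate 2, and the lowest P library, cytosol polysome replicate 1. Pdlim5 proximal ends were at 2.89 ± 1.48 CPM in P and 18.3 ± 13.3 CPM in D. The choice of Pdlim5 may have leaned on D reads as well, so its values are a description.

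Oxsr1, a kinase that responds to osmotic stress, went from 65.1% to 89.8% distal in P to 8.33% to 65.5% in D, which overlapped at the edge (-2.86, SE 0.36, adjusted p = 6.30e-05). Bmp1 encodes procollagen C-proteinase and, from longer transcripts, mammalian tolloid, and has its sites 12049 nt apart on chromosome 14 (minus strand, 70886414 and 70874365). Its distal share was 53.6% to 84.3% in P and 36.6% to 61.2% in D libraries, which overlapped (-1.66, SE 0.29, adjusted p = 0.00161). Camta1 was at -3.69 (SE 0.70), or -2.13 in polysome libraries alone, and Cgrrf1, a RING finger protein gene, at -1.69 (SE 0.25).

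Papola and Wdr33, members of the cleavage and polyadenylation machinery, were among the pairs that moved toward the proximal site. Papola, the canonical nuclear poly(A) polymerase, had a distal share of 8.82% to 37.3% in P and 2.84% to 16.6% in D (-1.81, SE 0.29, adjusted p = 0.000884). Wdr33, which contacts the polyadenylation signal, had 54.6% to 87.6% in P and 24.1% to 67.3% in D (-1.68, SE 0.34, adjusted p = 0.00962). Shares overlapped between states in both. Cstf3, a cleavage factor gene known for an intronic site and named here after its values were seen, passed in no comparison. Obsl1, Sdccag8, Whrn, Rab11fip3, Gnb1l, Cobl, Camta1, Pdlim5, Oxsr1, Papola, Cgrrf1, Wdr33 and Bmp1 kept their calls whichever 1 of the 16 gradient libraries was left out. Of these, Whrn, Rab11fip3, Gnb1l, Camta1, Cgrrf1, Wdr33 and Bmp1 lost them in polysome libraries alone (adjusted p = 0.0589 for Cgrrf1 to 0.469 for Gnb1l).

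**Figure D4:**
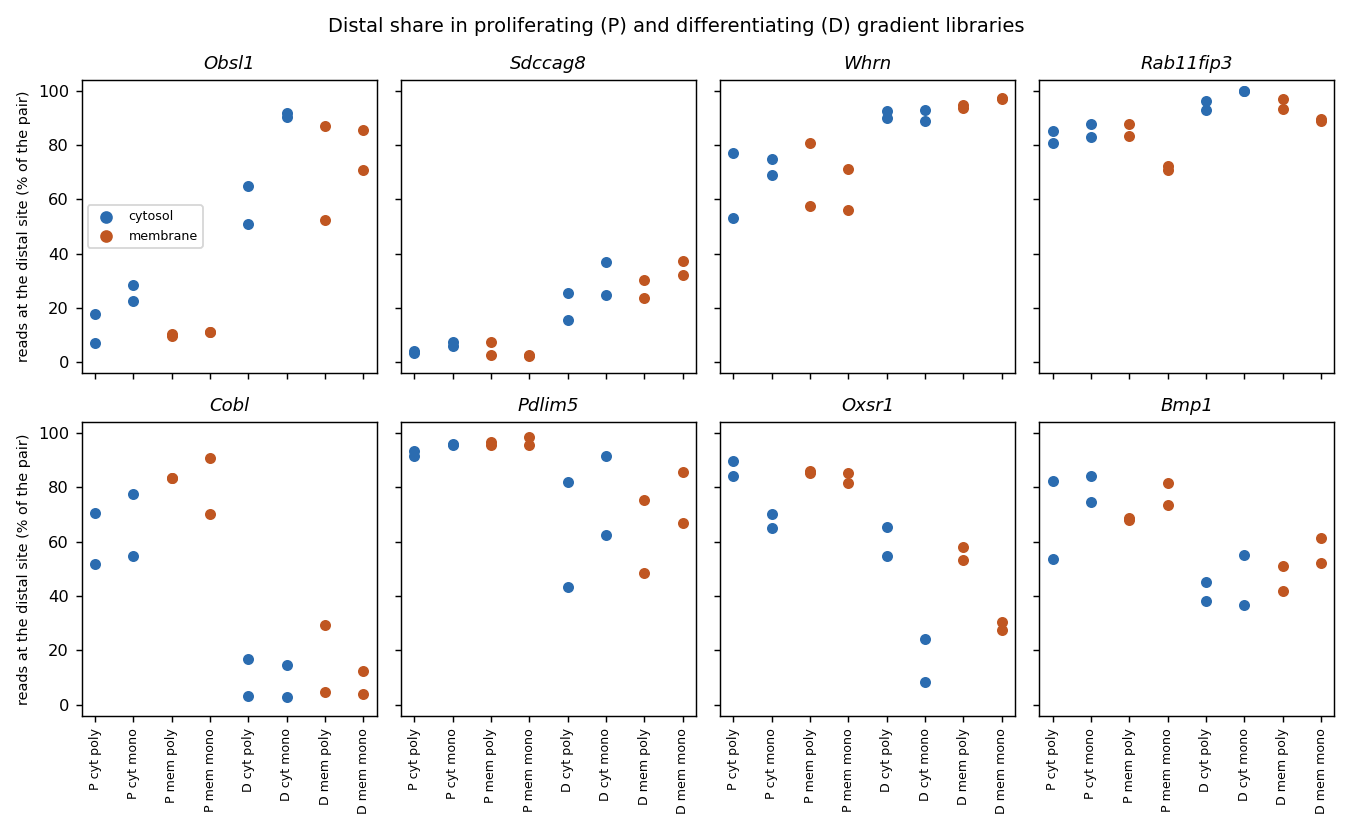
Reads at the distal site as a percent of the pair for 8 pairs called between states, 1 point per gradient library, P libraries on the left and D libraries on the right of each panel, cytosol in blue and membrane in orange. Obsl1 rises from at most 28.6% in P to at least 50.7% in D, and Cobl falls from at least 51.9% to at most 29.5%.

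Polysome and monosome RNA were compared within each fraction, over both states. In cytosol 30 far pairs were called (5.15%; background 1.10%), 23 with relatively more distal ends in polysomes (background 0.838%) and 7 with more proximal ends (background 0.267%). The median was -0.09 over far pairs and 0.04 over all pairs. With the replicate block 69 were called (background 5.16%). The count fell to 19 without P cytosol monosome replicate 1 or without P cytosol polysome replicate 2.

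Sin3b, a scaffold of a histone deacetylase complex, had the largest named difference toward the proximal site. Its sites lie 18302 nt apart on chromosome 8 (plus strand, 75263800 and 75282102). In cytosol polysomes the distal share was 10.7% and 3.11% in P and 12.2% and 6.73% in D, and in cytosol monosomes 65.8% and 51.5% in P and 53.9% and 51.1% in D. Proximal ends were at 97.7 ± 26.7 CPM in polysomes and 35.1 ± 10.2 CPM in monosomes, and distal ends at 8.01 ± 2.88 and 42.6 ± 4.72 CPM (SD, n = 4). Neither end overlapped between gradient parts, and the log2 difference was -3.96 (SE 0.43, adjusted p = 2.38e-05). Mapk8ip3, a scaffold for JNK signalling and axonal transport, had 33.9% to 48.3% distal in polysomes and 66.0% to 97.5% in monosomes (-3.70, SE 0.64, adjusted p = 0.00312). Fbxl2, an F-box protein of a ubiquitin ligase, had 6.18% to 25.6% and 34.5% to 69.7% (-2.83, SE 0.37, adjusted p = 0.000189). Tor1aip2 at -2.67 and Ece2 at -2.49 passed as well, and lost their calls in 5 and 6 of 8 fits that left out 1 library.

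In the other direction, Pacsin2 had distal shares of 73.3%, 84.8%, 79.5% and 70.2% in cytosol polysomes and 12.3%, 22.5%, 22.6% and 41.2% in cytosol monosomes (3.46, SE 0.53, adjusted p = 0.00107). Dgkd, a diacylglycerol kinase, went from 46.4% to 81.9% in monosomes to between 91.9% and 98.6% in polysomes (3.61, SE 0.65, adjusted p = 0.00447). Ikbkb, the kinase that activates NF-kappaB, went from 45.6% to 74.6% to between 88.7% and 90.7% (2.70, SE 0.41, adjusted p = 0.00107). Polysome and monosome libraries did not overlap in these 3 pairs. Arl3 at 3.60, Tulp3 at 3.44, Vps53 at 3.18 and Med14 at 3.09 had differences of like size. Of these 7 pairs only Arl3 lost its call when 1 library was left out, in 4 of 8 fits.

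In membrane 18 far pairs were called (3.09%; background 0.686%), 15 toward the distal site in polysomes (background 0.571%) and 3 toward the proximal site (background 0.114%), and 65 with the replicate block (background 3.12%) and 35 by DESeq2 (background 1.24%). The median was 0.40 over far pairs and 0.07 over all pairs. The count depended on single libraries, from 2 without P membrane polysome replicate 1 to 12 without P membrane polysome replicate 2. Adarb1 and Cflar were the named pairs that kept their calls in all of these fits. Adarb1 had a distal share of 68.7%, 74.5%, 55.8% and 59.0% in membrane polysomes and 33.6%, 25.4%, 13.0% and 15.3% in membrane monosomes (2.81, SE 0.40, adjusted p = 0.000943). Cflar, a regulator of cell death, had 67.3% to 81.2% and 21.5% to 52.3% (2.22, SE 0.35, adjusted p = 0.00348). In cytosol these differences were 2.12 and 2.10, called in both.

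Arl3 at 3.11, Mgat1 at 3.04, Dgkd at 2.97, Psph, the last enzyme of serine synthesis, at 2.06, Zfand3 at 1.90 and Tpcn1, an endolysosomal cation channel, at 1.59 were the other named pairs toward the distal site in membrane polysomes. Ppap2a, a lipid phosphate phosphatase, at -2.33 and Sin3b at -2.05 lay toward the proximal site. Each of these 8 lost its call in 4 to 8 of 8 fits that left out 1 library. The test of a difference between fractions in the polysome effect called 2 far pairs (0.343%; background 0.0762%), Cyhr1 and the long noncoding RNA 4932441J04Rik, and 11 with the replicate block (background 0.476%). It called 0 in 15 of the 16 fits that left out 1 library and 2 without D membrane polysome replicate 1. Cyhr1 had distal shares of 83.4% to 93.3% in cytosol polysomes and 57.7% to 83.4% in cytosol monosomes, but 39.9% to 52.1% in membrane polysomes and 46.3% to 63.1% in membrane monosomes.

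**Figure D5:**
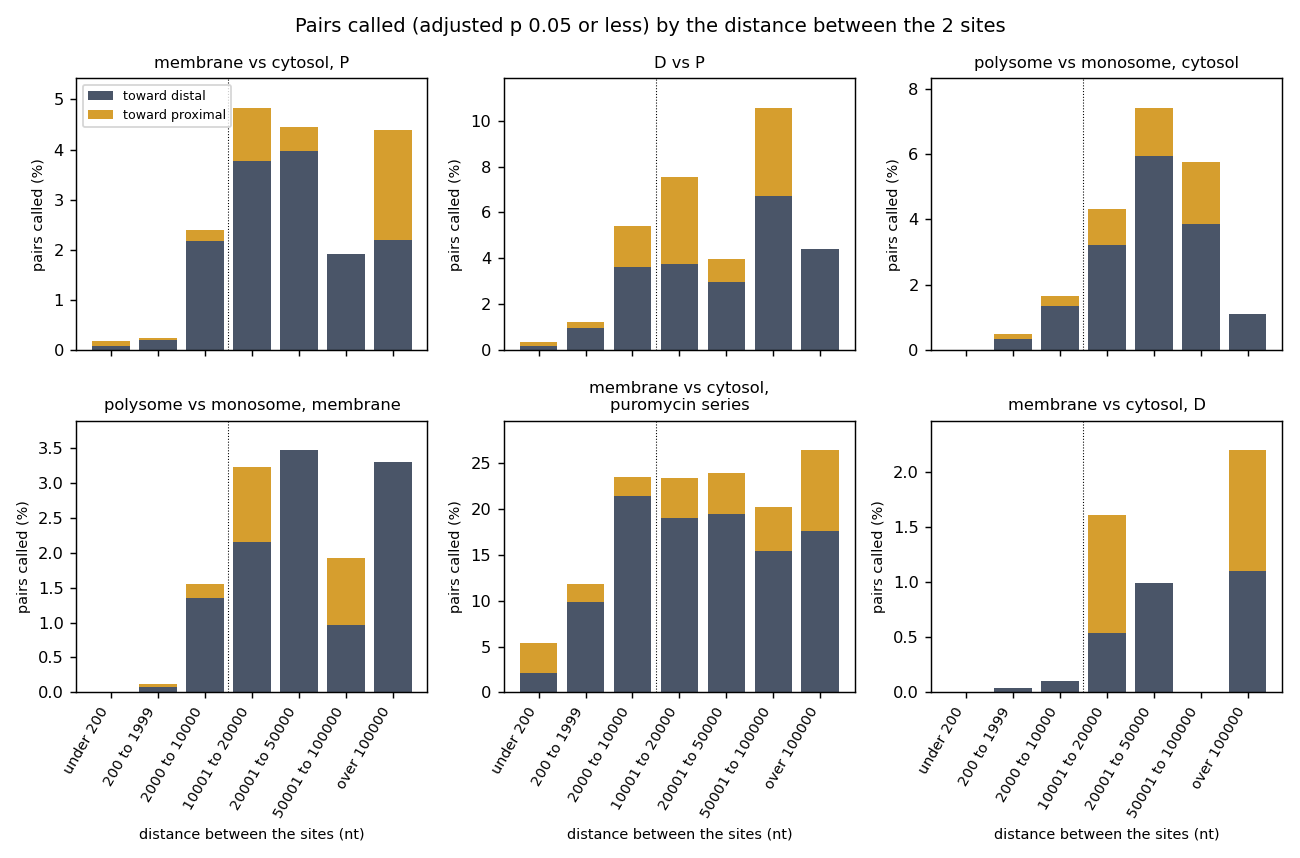
Percent of pairs called in 6 comparisons by the distance between the sites in nt (bars, toward distal in dark grey and toward proximal in yellow), with a dotted line at 10000 nt; the vertical scales differ. In P membrane against cytosol 4.12% of far pairs are called, against 2.39% of pairs 2000 to 10000 nt apart and 0.664% of all pairs 10000 nt or less apart.

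Within the far pairs the correlations with distance were small. Spearman's correlation between distance and the log2 difference was 0.02 for membrane against cytosol in P cells, 0.00 for the states, -0.02 for cytosol polysomes and 0.12 for membrane polysomes (n = 583 pairs, across genes of the same libraries). In the comparison of states the share called was 6.35% over 10000 nt, 5.40% from 2000 to 10000 nt and 1.84% over all pairs at 10000 nt or less. In cytosol polysomes these shares were 5.15%, 1.66% and 0.600%. In the puromycin series, pairs 2000 to 10000 nt apart were called about as often as far pairs, at 23.5% of 963 against 23.4%. These shares were not tested against each other.

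By function, 65 of the far pairs belonged to 1 of 8 lists of genes. Counts of list members in the puromycin series stand beside 18.3% of far pairs and 11.1% of all pairs called there toward the distal site. With the replicate block, 13.4% of far and 5.12% of all pairs were called toward the distal site between P fractions. Between D fractions these shares were 4.29% and 1.47%, and between states 12.2% and 6.93%. In cytosol polysomes they were 8.4% and 3.58%, and in membrane polysomes 9.95% and 2.29%. Toward the proximal site they were, in that order, 1.54% and 1.01%, 0.858% and 0.21%, 6.52% and 2.9%, 3.43% and 1.58%, and 1.2% and 0.838%. Of 6 pairs of actin and sarcomere genes, Pdlim5 was called between states and none in the gradient comparisons of fractions without the replicate block. With the block, Specc1, which binds the cytoskeleton, was called toward the distal site in P membrane (1.07, adjusted p = 0.00501), and 1 pair was called between states in each direction. In the puromycin series Specc1 had a difference of 0.84 (adjusted p = 0.00368), and Ldb3, a Z-disc protein, passed nowhere. Of 10 pairs of microtubule and trafficking genes, Rab11fip3 was called between states, and in the puromycin series Kif1c (2.03, SE 0.14) and Rab11fip3 (0.88) lay toward the distal site in membrane and Kif13a and Klc1, a kinesin light chain (-0.75), toward the proximal site. With the block Kif1c was also called toward the distal site in P membrane (1.24), in D membrane (0.83), between states (0.75) and in polysomes of cytosol (1.13) and membrane (1.43), as were Kif1b in D membrane and Golga4 between states, both named after their values were seen. Of 6 pairs of ER, secretory and glycan enzyme genes none was called in gradient libraries without the block, and 3 lay toward the distal site in membrane in the puromycin series: the calcium release channels Itpr1 (3.96) and Itpr2 (4.51) and the stress sensor Atf6 (3.02), of which Itpr1 and Itpr2 are named after their values were seen. Atp2a1, the calcium pump of fast muscle, had 0 to 4 distal reads in P and 1 to 427 in D gradient libraries, and its state difference of 3.82 missed the threshold (adjusted p = 0.0532) but passed with the replicate block (adjusted p = 1.45e-05). With the block Atf6 was also called toward the distal site in P membrane (3.43, adjusted p = 0.0122) and in membrane polysomes (3.36, adjusted p = 3.85e-08). Asph, a hydroxylase of the ER, was called with it toward the distal site in D cells (0.86) and toward the proximal site in polysomes of cytosol (-1.51) and membrane (-1.09).

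Of 10 pairs of cell surface, receptor and matrix genes, Vcam1, a cell adhesion molecule, was called between states, toward the proximal site in D cells (-1.29, SE 0.29, adjusted p = 0.0185), and Cacna2d1, a calcium channel subunit named after its value was seen, lay toward the distal site in membrane in the puromycin series (3.63, adjusted p = 0.0347). With the block 1 pair of this list was called in P membrane, toward the distal site. Fbln1 and the growth factor receptor gene Pdgfrb passed in no comparison. Of 7 pairs of RNA processing and translation genes, Papola and Tnrc6c, a partner of Argonaute in silencing (1.76, adjusted p = 0.0259), were called between states in opposite directions, and Ewsr1 in none. The block added 1 pair toward the proximal site in D cells, and Papola toward the distal site in membrane polysomes (1.22, adjusted p = 0.0495). Of 13 pairs of kinases, phosphatases and ubiquitin enzymes, Ppp2r5c, a regulatory subunit of protein phosphatase, was called between states (1.07, adjusted p = 0.0217), and 5 lay toward the distal site in membrane in the puromycin series, Sik3 at 1.18 and Ptpn14 at 0.82 among them. With the block 2 were called toward the distal site in P membrane, among them Sik3 (1.47, adjusted p = 1.72e-06), and 2 in membrane polysomes, among them Ptpn14 (1.75, adjusted p = 0.00289). Of 12 pairs of transcription and chromatin genes, Stag1 was called between fractions and Kdm6b between states, and in the puromycin series 3, among them Whsc1l1 at 1.79, lay toward the distal and Chd9 toward the proximal site, while Atrx passed nowhere. With the block 2 of this list were called toward the distal and 1 toward the proximal site in P membrane, and 1 in each direction in D membrane, where Stag1 was at -2.35 (adjusted p = 4.07e-05). In polysomes the block called 1 toward the distal and 2 toward the proximal site in cytosol, and 2 and 1 in membrane, and between states 2 toward the distal site. All list counts with the block stand beside the block shares of far and all pairs given above, and were not tested against them. The single pair of a listed long noncoding RNA, Dleu2, was called between states at 2.96 (SE 0.71, adjusted p = 0.0252). List medians in the comparison of P fractions ran from -0.12 to 1.44, beside 0.17 over all pairs and 0.66 over far pairs.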

How the data were processed

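Poly(A) site counts of 26 3′READS+ libraries were analysed. The counts are raw reads per site made by the authors, on mm9 with cutadapt, Bowtie2 and STAR 2.5.2 named in the submitters' processing notes, which give no role for each tool. The 3 RNA-seq libraries were not used here. The members, gene lists and tests were chosen with earlier results of these data known. Entries numbered 125369 under 17005 symbols, and 651 sites listed under more than 1 symbol were dropped.

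For each of 5250 pairs, edgeR 4.0.16 (R 4.3.3) fitted proximal and distal counts of each library with a term per library, over the 16 gradient libraries or the 8 of the puromycin series; the quasi-likelihood F test gave the difference in log2(distal/proximal), its standard error was taken as the size of the difference over the square root of F, and p-values were Benjamini-Hochberg adjusted over all pairs at 0.05. Pairs named in each comparison are up to 8 per direction with the largest difference among those called, with a mean of at least 50 reads per library and the same sign in both replicates, clone names passed over; the 10 with most reads, the 5 farthest apart and 3 per list with most reads were added. Some pairs that this rule names are not reported here. Replicate numbers pair the samples: deviations of same-numbered libraries correlated at 0.208 to 0.548 in 28 of 28 pairs of groups (median 0.376, 3072 pairs of sites). The main fits, their SEs and the fits that left out a library did not use this pairing. The replicate block did, and it called more far pairs in each gradient comparison. On simulated counts for the comparison of P fractions (5250 pairs), 5% of changes of 1 and 29% of changes of 2 on the log2 scale were recovered, so that a pair not called may still differ. DESeq2 1.42.0, the replicate block, other filters and leaving out libraries were tried as alternatives. Gene types came by name from RefSeq (GRCm38.p6).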

Additional observations from a re-analysis of the deposited data

Results flagged for a closer look

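The difference between fractions changed with the time of exposure to puromycin in 14 of 580 far pairs (2.41%; 0.611% of all pairs), by edgeR's quasi-likelihood test of the slope per 30 min. In 10 of the 14 the call was lost when 1 exposure was left out. The slope of the membrane minus cytosol difference in log2(distal/proximal) was 2.79 for Stag1, 2.62 for Abcc10, 2.56 for Med14, 2.23 for Pex6, 1.78 for Pacsin2, 1.53 for Cyhr1 and 1.02 for Bmp1. It was -2.04 for Txnrd2, -1.97 for Gpr116, -1.59 for Tor1aip2, -1.47 for Ece2, -1.25 for Wdr33, -0.96 for Sin3b and -0.82 for Gart.

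The polysome minus monosome difference was not the same in membrane and cytosol for 2 far pairs (0.343%; 0.0762% of all pairs). Membrane minus cytosol, it was -2.22 for Cyhr1 and 7.68 for 4932441J04Rik (adjusted p = 0.0464 in both, edgeR). 4932441J04Rik is a long noncoding RNA named after its values were seen: in cytosol monosomes of P cells it had 0 proximal and 12 and 17 distal reads, and in membrane polysomes 3 and 0 proximal and 143 and 68 distal reads. These groups alone do not show the difference, which also draws on membrane monosome, cytosol polysome and D libraries. With proximal counts of 0 its size is uncertain. Cyhr1 lost this call in all 16 fits that left out 1 library, and the test called 0 to 2 far pairs in these fits.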

How the results depend on the processing

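The number of far pairs called moved with the test and its filters. Of pairs called between P fractions (24), DESeq2 called 37, no read minimum 37, the replicate block 87, and leaving out 1 library 13 to 22. For D fractions (7) the contrast's own libraries gave 4, the block 30, leaving out 1 library 1 to 2. For the difference of both (0), no read minimum and the block each gave 1. Between states (37), DESeq2 gave 69, no read minimum 65, the block 109, polysome libraries alone 6. For cytosol polysomes (30) the block gave 69 and leaving out 1 library 19 to 23; for membrane polysomes (18) DESeq2 gave 35, no read minimum 36, own libraries 8, the block 65 and leaving out 1 library 2 to 12; for their difference (2) no read minimum gave 4, the block 11 and leaving out 1 library 0 to 2. In the puromycin series DESeq2 gave 81 (136) and, for the slope, 4 (14), with 7 to 13 when 1 exposure was left out. The replicate block ended none of the 60 calls of single pairs chosen by the rule it was run on.

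A limit of 50000 nt left 195 pairs. The mean over libraries of the median log2(distal/proximal) was 1.14 in P cytosol and 1.30 in D cytosol with 0.5 reads added to each count. With 5 added it was 0.59 in P cytosol, 1.21 in P membrane, 0.63 in D cytosol and 1.15 in D membrane, still higher in membrane in each state. Of 90 single differences chosen by the naming rule, 49 kept their call in every fit that left out 1 library or exposure and 41 lost it in at least 1. With all sites of a gene summed to the nearer of the pair, Chd9 changed sign in the puromycin series, to 0.24. The cause of these changes was not tested.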
